A study of Mus musculus with 8 samples.

Results

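The array titles speak of double-negative thymus emigrants. The term means immature T-lineage cells that carry neither CD4 nor CD8 and have moved from the thymus to the spleen. Whether all the sorted cells were such emigrants was not tested. The comparison described here sets the 2 arrays of emigrants from mice given the dioxin TCDD (2,3,7,8-tetrachlorodibenzo-p-dioxin) against the 2 arrays of emigrants from mice given corn oil alone. These are 4 of the 8 arrays of the series, chosen by their titles, and the other 4 hold double-negative thymocytes under the same treatments. All mice were C57BL/6 females of 6 to 8 weeks. TCDD was given once by intraperitoneal injection at 10 µg/kg in corn oil, a FITC label was injected in vivo 5 days later, and organs were taken 24 h after that. CD4-CD8- cells of the spleen were sorted as emigrants and those of the thymus as thymocytes. The labels name no lineage marker in the sort beyond CD4 and CD8, and they do not say whether FITC was gated. Whether replicate arrays stem from different animals is not stated either, and a p-value here reflects just how far these arrays vary, possibly for technical reasons alone.

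The labels disagree with each other on some arrays. The array titled emigrants, oil, replicate 1 (oil 1 below) carries a Treatment field that names TCDD at 10 nM, and the field of oil 2 reads Dioxane 2. For 2 emigrant arrays, oil 2 and TCDD 1, the Tissue entry is thymus. Groups here follow the titles, and the genes known to respond to TCDD are therefore given array by array. For Scin, oil 1 read 4.88 and oil 2 4.87, and for Ahrr 3.93 and 3.81, while each array titled TCDD was above them.

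TCDD binds the aryl hydrocarbon receptor (AhR), a transcription factor held in the cytoplasm by the chaperone HSP90 until a ligand arrives. The receptor then enters the nucleus, pairs with ARNT and binds short DNA elements with the core GCGTG near its target genes, among them those of cytochrome P450 enzymes and of its own repressor. In the thymus, TCDD is known for shrinking the organ and for acting on early T-cell precursors.

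Values are log2 expression from the RMA method as the authors deposited them, so 1 unit is a doubling. They ran from 2.54 to 13.9, and array medians from 4.81 to 4.91. A value below its array's median was not shown to be above background, and a difference that starts there understates a change. Over 12394 genes, each represented by its brightest probe set, the median difference between TCDD and oil in emigrants was 0.03. Levels are compared between arrays for one gene and never between genes. These are bulk samples, so fewer cells of a type and less RNA per cell cannot be told apart.

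No probe set passed the threshold. limma, fitted on all 8 arrays, called 0 of 20393 probe sets (0%) at a Benjamini-Hochberg adjusted p under 0.05, and the smallest adjusted p was 0.9999. limma with trend and robust settings also called 0. At an unadjusted p under 0.05 the fit held 245 probe sets (1.2%), of which 100 were higher and 145 lower under TCDD. With 2 arrays against 2, an exact permutation test cannot go below p = 0.3333. The values below are therefore descriptions of these 4 arrays, and genes chosen for their difference carry no test.

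The promoters of 4 AhR target genes are shown because these genes had the largest differences of the AhR list. The core marked in them is the short sequence the receptor is known to bind, found here by its letters alone. Each is the stretch of 250 bases before the start site in RefSeq, build GRCm38.p6, in the direction of the gene. Capitals mark the core GCGTG, which reads CACGC where it lies on the opposite strand. The gene of the AhR repressor, Ahrr, lies on the minus strand at chr13:74292332-74292581 and holds the core 107, 82 and 27 bases before its start.
Ahrr: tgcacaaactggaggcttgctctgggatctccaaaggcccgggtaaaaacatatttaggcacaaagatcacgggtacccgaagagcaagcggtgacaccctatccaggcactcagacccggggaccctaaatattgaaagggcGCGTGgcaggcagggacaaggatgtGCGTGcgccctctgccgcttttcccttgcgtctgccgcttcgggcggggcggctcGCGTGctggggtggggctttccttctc
Scin, the gene of the actin-severing protein scinderin, lies on the minus strand at chr12:40134229-40134478, with the core 35 bases before its start.
Scin: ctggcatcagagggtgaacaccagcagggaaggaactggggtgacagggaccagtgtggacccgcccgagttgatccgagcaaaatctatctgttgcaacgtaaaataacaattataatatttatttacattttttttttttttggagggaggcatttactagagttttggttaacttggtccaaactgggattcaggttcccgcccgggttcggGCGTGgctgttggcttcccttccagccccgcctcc
Tiparp, the gene of an ADP-ribosyltransferase that dampens AhR signalling, lies on the plus strand at chr3:65528197-65528446, with the core 170 bases before its start on the opposite strand.
Tiparp: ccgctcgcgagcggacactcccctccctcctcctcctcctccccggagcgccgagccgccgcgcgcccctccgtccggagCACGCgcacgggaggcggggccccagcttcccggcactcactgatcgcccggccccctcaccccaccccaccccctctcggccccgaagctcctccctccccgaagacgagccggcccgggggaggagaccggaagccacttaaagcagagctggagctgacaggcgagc
Cyp1b1, the gene of a cytochrome P450 monooxygenase, lies on the minus strand at chr17:79715062-79715311, with the core 76 bases before its start on the opposite strand.
Cyp1b1: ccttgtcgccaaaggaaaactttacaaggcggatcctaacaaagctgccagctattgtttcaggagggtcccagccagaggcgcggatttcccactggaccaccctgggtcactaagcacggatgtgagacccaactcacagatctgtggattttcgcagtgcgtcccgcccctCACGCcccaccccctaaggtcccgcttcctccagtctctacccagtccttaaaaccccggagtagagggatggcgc

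Both strands were searched over these 250 bases. Of the 11 AhR targets, 9 were in the promoter table and 6 of them held the core, which 28.2% of all 32851 promoters of the same length hold. The longer site TNGCGTG, which contains the core, was in 1 target, Ahrr, and in 4.1% of all promoters. Other genes described below were searched too. The core was in Dsp, Lgals3 and Gstm1, higher under TCDD, and in Ugcg and Vbp1, lower under TCDD. Ugcg also held the longer site. Ifitm1, higher, and Eomes and Ptbp2, lower, held no core. Ahrr held 3 cores, and 2.77% of promoters hold 3 or more. A match is a description of letters and not a binding site.

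Some known AhR targets were among the genes with the largest differences in emigrants: by the difference of means Scin, Ahrr, Tiparp and Cyp1b1 ranked 1, 2, 4 and 5 of 12394 genes. All 11 measured targets had a higher mean under TCDD, beside 55.6% of all genes, and their median difference was 0.60. In 7 of the 11 the groups did not overlap and TCDD was higher, beside 14.6% of all genes. For 5 the limma p before adjustment was under 0.05 on the higher side, beside 0.597% of all genes. This list was chosen with earlier results of these arrays known, so its direction is not independent evidence. Leaving out any 1 emigrant array kept the median of the list between 0.36 without oil 2 and 0.92 without oil 1.

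Scin read 4.88 and 4.87 in the oil arrays, and 9.97 and 6.30 in TCDD 1 and TCDD 2. The groups did not overlap, and TCDD 1 stood far above TCDD 2. The difference of means was 3.26 ± 1.06 (SE from limma, n = 2 against 2). Avil, the gelsolin-family gene of advillin, read 4.90 and 4.94 under oil and 5.08 and 5.77 under TCDD. Of 22 measured genes of the actin cytoskeleton and gelsolin family, 16 had a higher mean (beside 55.6% of all genes), with a median of 0.10 that was -0.06 without oil 2 and -0.03 without TCDD 1.

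Ahrr, the repressor that competes with the receptor for ARNT, read 3.93 and 3.81 under oil and 5.19 and 7.65 under TCDD. Here TCDD 2 was the higher array, and both oil arrays lay below their medians. The difference was 2.55 ± 0.72 (SE, n = 2 against 2). For Tiparp, the values were 6.56 and 5.83 under oil and 7.74 and 9.09 under TCDD. The groups were again apart, with TCDD 2 highest, and the difference of 2.21 ± 0.57 (SE) is 4.64-fold. A second probe set of Tiparp read 6.23 and 5.98 under oil and 8.03 and 9.46 under TCDD, a difference of 2.64.

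Cyp1b1 gave 4.69 and 6.25 under oil and 6.87 and 8.36 under TCDD. Its oil arrays were far apart, yet the difference was nearly the same within each replicate number, 2.18 for number 1 and 2.11 for number 2. Another Cyp1b1 probe set, near the medians, read 5.13 and 4.68 under oil and 5.00 and 5.19 under TCDD, a difference of 0.19, so the probe sets disagree. The last one lay below the medians, with a difference of 0.14. Cyp1a1, the classical dioxin-induced cytochrome P450, read 4.20 and 4.08 under oil and 4.22 and 5.59 under TCDD. Only TCDD 2 stood out for it, and the other 3 arrays lay below their medians.

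The remaining targets differed less. Nqo1, the quinone reductase gene, read 4.87 and 4.64 under oil and 5.23 and 5.22 under TCDD. Selenbp1, a selenium-binding protein gene, read 4.90 and 4.27 under oil and 5.57 and 4.82 under TCDD, so its groups overlapped. Differences were 0.23 for Xdh (xanthine dehydrogenase), 0.17 for Cyp1a2, 0.13 for Nfe2l2 (the antioxidant regulator NRF2) and 0.10 for the aldehyde dehydrogenase gene Aldh3a1. Of these, the differences of Xdh, Nfe2l2 and Aldh3a1 turned sign when 1 array was left out: oil 2 or TCDD 1 for Xdh, TCDD 1 for Nfe2l2 and TCDD 2 for Aldh3a1.

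**Figure D1:**
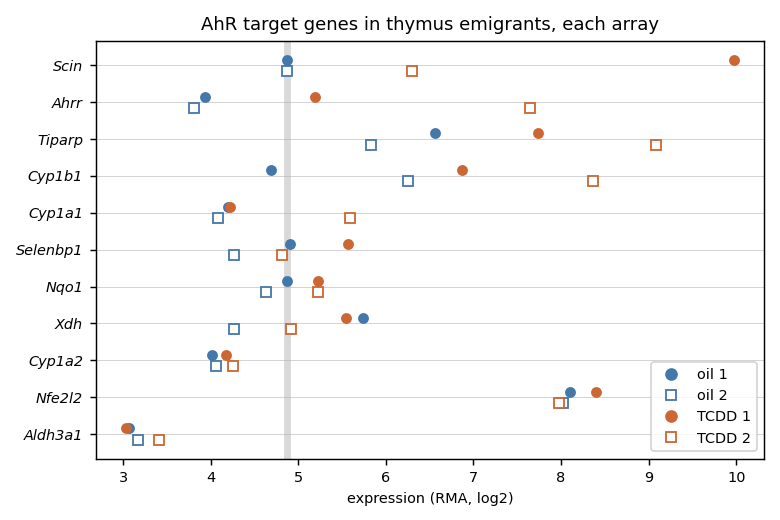
Expression (RMA, log2) of the 11 AhR target genes in the 4 emigrant arrays, ordered by the difference of means; filled circles are replicate number 1, open squares number 2, blue oil and orange TCDD, and the grey band spans the array medians. Scin, Ahrr, Tiparp and Cyp1b1 have both TCDD arrays to the right of both oil arrays, with TCDD 1 at 9.97 for Scin and TCDD 2 at 9.09 for Tiparp; the lower 7 genes lie closer together.

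The receptor's own transcript was lower. Ahr read 9.46 and 8.75 under oil and 8.04 and 8.53 under TCDD, a difference of -0.82 ± 0.41 (SE, n = 2 against 2). Both TCDD arrays lay below both oil arrays, 0.22 log2 units apart at the nearest. A second probe set of Ahr, at the level of the array medians, had a difference of 0.10, so the 2 probe sets disagree. Of 7 listed members of the receptor complex, 4 were measured. Hsp90aa1, the HSP90 chaperone gene, read 10.38, 10.17, 10.33 and 8.99 in oil 1, oil 2, TCDD 1 and TCDD 2, so only TCDD 2 was low in this probe set. Other Hsp90aa1 probe sets read 9.05, 7.43, 9.53 and 6.36, and 9.16, 6.36, 9.05 and 4.96, in the same order. In these oil 2 was also well below oil 1 and TCDD 1, so the groups overlapped. The partner genes Arnt and Arnt2 had differences of 0.35 and 0.04.

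Among all genes, 5 had groups more than 1 log2 unit apart at the nearest arrays. On the higher side they were Dsp, Scin, Ahrr and Tiparp, 0.0323% of genes, and on the lower side Eomes, 0.00807%. Groups that did not overlap at all were found for 3065 genes (24.7%), of which 1808 (14.6%) were higher and 1257 (10.1%) lower. The 15 genes with the widest gap in each direction are described next, chosen on this contrast itself.

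Dsp had the widest gap of the higher genes. It encodes desmoplakin, which ties desmosomes to intermediate filaments, and read 4.12 and 3.79 under oil and 5.69 and 6.22 under TCDD. The TCDD arrays were close to each other, and the oil arrays lay below their medians. A second probe set of Dsp read 3.78 and 3.83 under oil and 5.31 and 6.32 under TCDD, and another, dim one had a difference of 0.07. The difference of Dsp was 2.00 ± 0.58 (SE).

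Gstm1, a glutathione transferase of phase II detoxification, read 5.87 and 5.89 under oil and 6.59 and 7.17 under TCDD. Its oil arrays were almost equal, and the difference of 1.00 ± 0.21 (SE) is 2.00-fold. Another Gstm1 probe set read 6.04 and 6.00 under oil and 6.73 and 6.77 under TCDD, and 2 more had differences of 0.35 and 0.19. Gstm1 stood alone in its list in size: of 17 measured phase II and antioxidant genes, 10 had a higher mean (beside 55.6% of all genes), 5 had groups apart and higher (beside 14.6%), and the median was 0.08. The other members with groups apart were Srxn1, Gsta2, Gstp1 and Gstt1, with differences from 0.10 to 0.29.

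The other higher genes of this rule differed by 0.58 to 1.15 log2 units. Smap2, which acts on Arf GTPases in vesicle transport, read 5.84 and 5.22 under oil and 6.62 and 6.74 under TCDD. Ehd1, a gene of endocytic recycling, read 8.68 and 8.20 under oil and 9.31 and 9.35 under TCDD. In both genes the TCDD arrays were close together. Plscr1, an interferon-inducible phospholipid scramblase gene, read 5.52 and 5.38 under oil and 6.20 and 6.34 under TCDD. The set also held Poglut2 (0.61, a glucosyltransferase), Stom (0.69, the membrane protein stomatin), Ank (0.64, pyrophosphate transport) and Tbcel (0.87, a tubulin cofactor-like protein). A second Tbcel probe set, above the medians, had a difference of -0.20, so the 2 disagree. Its 2 myeloid genes were Elane (0.62, neutrophil elastase) and Ncf4 (0.58, a subunit of the phagocyte oxidase).

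Further genes were chosen for being higher within both replicate numbers, ordered by the smaller of the 2 differences. Lgals3, the gene of galectin-3, read 7.14 and 8.34 under oil and 8.44 and 9.60 under TCDD. TCDD exceeded oil by 1.29 in number 1 and 1.26 in number 2, while the 2 oil arrays were almost as far apart. Ifitm1, an interferon-induced membrane protein gene, read 8.33 and 9.49 under oil and 9.59 and 10.42 under TCDD. Pf4, a chemokine of platelets, read 6.27 and 7.85 under oil and 8.10 and 10.00 under TCDD. In each of these genes number 2 was the higher array in both groups. Socs3, an inhibitor of JAK-STAT signalling, had its higher arrays in number 1, with 7.64 and 6.41 under oil and 8.56 and 7.33 under TCDD. Serpinb1a (1.41), Cd93 (1.39), C1qb (1.00) and Scpep1 (0.99) completed the 8 genes of this rule. Scpep1 turned sign when oil 1 or TCDD 2 was left out.

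**Figure D2:**
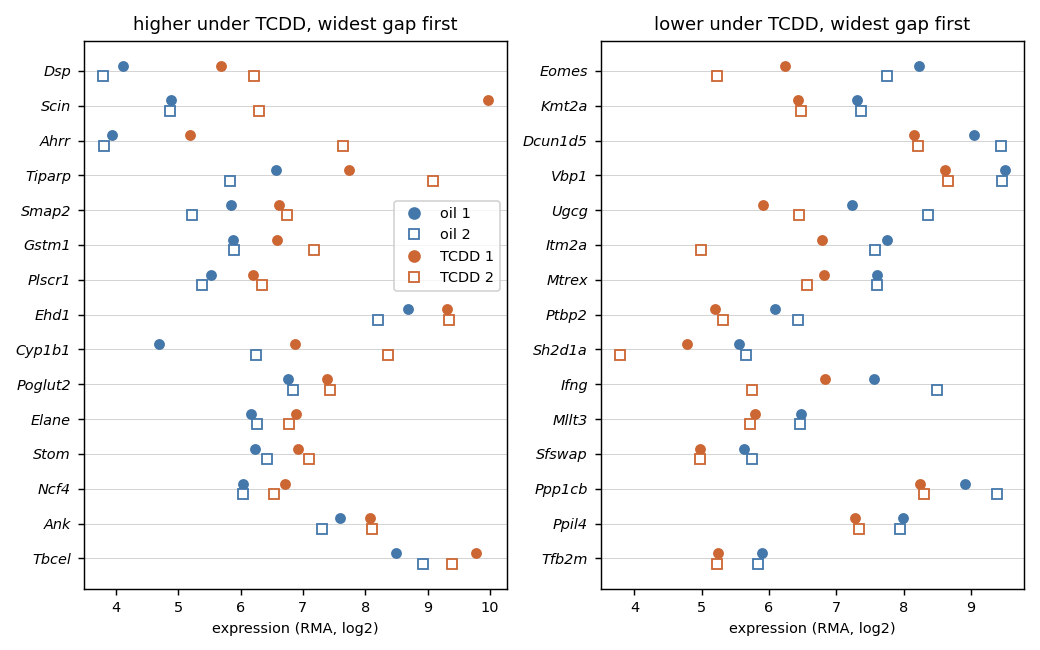
Expression (RMA, log2) in the 4 emigrant arrays of the 15 genes higher (left) and the 15 lower (right) under TCDD with the widest gap between groups; filled circles are number 1, open squares number 2, blue oil and orange TCDD. In each row the orange points lie on one side of the blue ones, from 3.79 and 4.12 against 5.69 and 6.22 for Dsp to 5.90 and 5.84 against 5.24 and 5.22 for Tfb2m.

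Eomes, a T-box transcription factor gene of cytotoxic lymphocytes and NK cells, had the widest gap of the lower genes. It read 8.22 and 7.75 under oil and 6.24 and 5.22 under TCDD. Every array was above its median, and the difference of -2.26 ± 0.39 (SE, n = 2 against 2) is 4.78-fold lower. Within number 1 the difference was -1.98, the lowest of all 12394 genes, and within number 2 it was -2.53. A second probe set of Eomes, near the median, had a difference of -0.42.

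Also in the lower set were 3 genes known from T and NK cells. Ifng, the gene of interferon gamma, read 7.55 and 8.49 under oil and 6.84 and 5.75 under TCDD. Sh2d1a, which encodes the signalling adaptor SAP, read 5.55 and 5.66 under oil and 4.78 and 3.78 under TCDD, the latter both below their medians. Itm2a, a T-cell membrane protein gene, read 7.75 and 7.57 under oil and 6.78 and 4.99 under TCDD. In all 3 genes TCDD 2 was the lowest array. A second Itm2a probe set had a difference of -0.48. Of 12 measured cytotoxic granule and effector genes, 7 had a higher mean (beside 55.6% of all genes), 3 had groups apart and higher (beside 14.6%), and Ifng alone had groups apart and lower, with a median of 0.01 that was -0.20 without oil 1.

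Ugcg encodes glucosylceramide synthase, the first enzyme of most glycosphingolipids. It read 7.23 and 8.36 under oil and 5.91 and 6.44 under TCDD, a difference of -1.62 ± 0.40 (SE) or 3.07-fold lower. A second Ugcg probe set, with near-equal arrays within each group, read 7.75 and 7.73 under oil and 6.99 and 7.08 under TCDD. Vbp1, a subunit of the prefoldin chaperone, had near-equal arrays within each group, with 9.50 and 9.46 under oil and 8.61 and 8.65 under TCDD. Its difference was -0.85 ± 0.17 (SE), or 1.80-fold lower.

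Several nuclear RNA genes were among the lower set. Mtrex, the helicase of the nuclear exosome, read 7.60 and 7.61 under oil and 6.82 and 6.56 under TCDD. Ptbp2, a splicing regulator, read 6.08 and 6.43 under oil and 5.20 and 5.31 under TCDD, while a second probe set, near the medians, had a difference of 0.01. Sfswap, another splicing regulator, had a difference of -0.72. Kmt2a, a histone H3 methyltransferase gene, read 7.30 and 7.36 under oil and 6.43 and 6.47 under TCDD. A second Kmt2a probe set, also above the median, read 6.24, 6.54, 6.37 and 6.48 in the same order, so the 2 probe sets disagree. The rest were Dcun1d5 (-1.06) of cullin neddylation, Mllt3 (-0.72) of transcription elongation, Ppp1cb (-0.88), a protein phosphatase catalytic subunit, Ppil4 (-0.66), a cyclophilin-like protein, and Tfb2m (-0.64) of mitochondrial transcription.

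The 8 further genes chosen for being lower within both numbers were Reck, Cd2, Rnf138, Zfp207, Uba3, Chn2, Rasa1 and Fgf13, with differences from -0.77 to -1.05. Cd2, an adhesion receptor of T and NK cells, read 6.30 and 5.20 under oil and 5.43 and 4.23 under TCDD. Uba3, a subunit of the NEDD8-activating enzyme, read 8.81 and 8.34 under oil and 8.04 and 7.19 under TCDD. Fgf13 shows how far the numbers could lie apart, with 9.37 and 5.67 under oil and 8.69 and 4.42 under TCDD. Its difference turned sign without oil 1 and without TCDD 2. For Zfp207, 2 other probe sets, above and near the medians, had differences of 0.09 and 0.04, and 2 dimmer ones -0.30 and -0.06. A second Rnf138 probe set, above the medians, had a difference of -0.18 with groups that overlapped, and a dimmer one -0.14.

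Splicing and chaperone genes were mostly lower, with the larger part in number 2. Of 25 measured splicing factors and RNA helicases, 4 had a higher mean (beside 55.6% of all genes) and 21 a lower one. Groups were apart and lower for 10, beside 10.1% of all genes. For 4 of the 25 the limma p before adjustment was under 0.05 on the lower side, beside 0.67% of all genes. The median was -0.35, with -0.06 in number 1 and -0.52 in number 2, and without oil 2 it was -0.04. Srsf6, an SR splicing factor, read 9.14 and 9.12 under oil and 8.78 and 8.21 under TCDD. Other Srsf6 probe sets, also above the medians, had differences of -0.23 and -0.52, with groups that overlapped. Hnrnpa2b1, an RNA-binding protein gene, read 10.69 and 11.00 under oil and 10.60 and 9.86 under TCDD. Sf3b1, of the U2 particle, differed by -0.48. A second Sf3b1 probe set above the medians differed by -0.45 with groups that overlapped, and another, below them, by -0.22.

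Of 23 measured heat shock proteins and chaperonins, 4 had a higher mean (beside 55.6% of all genes) and 19 a lower one. Groups were apart and lower for 6, beside 10.1% of all genes. The list's median was -0.35, with 0.02 in number 1 and -0.53 in number 2, and -0.12 without oil 2. Dnaja1, an HSP70 cochaperone gene, read 10.23 and 9.99 under oil and 9.62 and 9.45 under TCDD. Cct5, a subunit of the cytosolic chaperonin, read 9.77 and 9.71 under oil and 9.36 and 9.29 under TCDD. For both, in the probe sets used, the arrays of a group were closer to each other than the groups were. A second Dnaja1 probe set read 9.52 and 10.345 under oil and 9.40 and 9.61 under TCDD, so its groups overlapped. Cct6a, of the same chaperonin, differed by -0.49.

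Proliferation genes had opposite differences in the numbered pairs. Of 26 measured DNA replication genes, 25 were higher under TCDD within number 1 and 1 within number 2, with medians of 0.38 and -0.71. Of 27 mitosis genes, 25 were higher within number 1 and 0 within number 2, with medians of 0.39 and -0.59. Over all 12394 genes, 5782 were higher within number 1 and 7212 within number 2. Oil 1 was the lowest array for 14 of the replication and 20 of the mitosis genes, and oil 2 the highest for 21 and 25. How often each array was lowest or highest over all genes was not counted. Uhrf1, a factor of DNA methylation maintenance, read 5.82, 7.98, 6.88 and 6.52 in oil 1, oil 2, TCDD 1 and TCDD 2. The mitotic kinase gene Cdk1 read 6.93, 8.50, 7.72 and 7.57 in the same order. Over group means the medians were -0.15 and -0.13, and without oil 2 they were 0.20 and 0.37. Mcm5 (-0.64) and Mcm6 (-0.45), of the replicative helicase, had the smallest p values of the replication list, and both turned sign when 1 array was left out, oil 2 for Mcm5 and TCDD 2 for Mcm6. Aurkb (-0.57) and Kif20a (-0.45), of cell division, led the mitosis list in p.

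**Figure D3:**
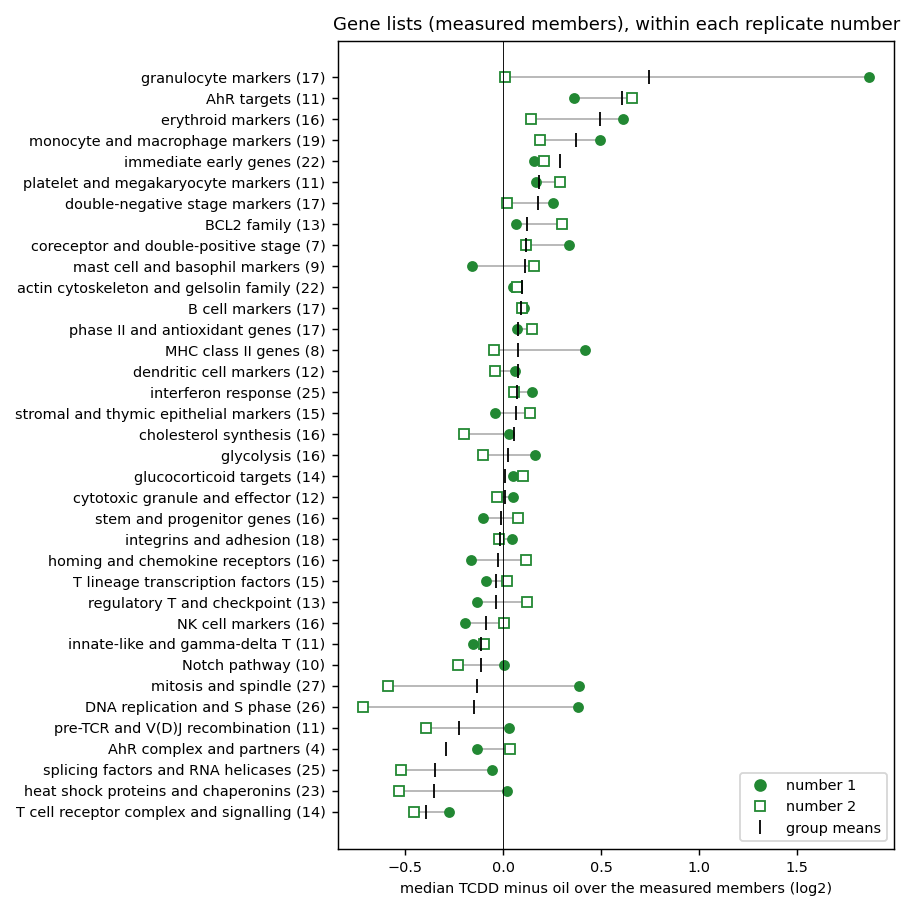
Median TCDD minus oil difference (log2) over the measured members of each of the 36 gene lists, with the number of members in brackets; filled circles are replicate number 1, open squares number 2, and black ticks the difference of group means. Granulocyte markers reach 1.87 in number 1 and 0.01 in number 2, and DNA replication lies at 0.38 and -0.71, while the AhR targets are above 0 in both, at 0.36 and 0.66.

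T-cell genes checked the label of the cells. Cd3e, a signalling chain of the T-cell receptor complex, read 8.77 and 8.30 under oil and 8.66 and 8.91 under TCDD. The coreceptor gene Cd4 stayed between 5.04 and 5.31 in the emigrant arrays, near their medians. Cd8a read 4.57 and 5.84 under oil and 6.18 and 6.24 under TCDD, and Cd8b1 3.98 and 3.80 under oil and 5.04 and 4.47 under TCDD. So both CD8 genes had groups apart, by 0.35 for Cd8a and 0.48 for Cd8b1 at the nearest arrays. For Cd8a, oil 1 alone lay below its median, while for Cd8b1 TCDD 1 alone lay above its median. A second Cd8a probe set, below the medians, had a difference of -0.01. Ccr9, a homing receptor of thymus-derived cells, lay between 9.19 and 9.56 in all 4 arrays. A second Ccr9 probe set, also above the medians, read 7.16 and 7.53 under oil and 7.17 and 6.37 under TCDD. Its difference was -0.57, and that of another probe set, below the medians, was -0.59, so the probe sets disagree.

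Of 14 measured members of the T-cell receptor complex and its signalling, 3 had a higher mean (beside 55.6% of all genes) and 11 a lower one. Groups were apart and lower for 2, beside 10.1% of all genes. The list's median was -0.39, with -0.28 in number 1 and -0.46 in number 2, and -0.01 without TCDD 2. Cd3g read 9.33 and 9.20 under oil and 9.07 and 8.50 under TCDD. Cd247, the zeta chain gene, read 7.23 and 7.01 under oil and 6.69 and 6.80 under TCDD. The kinase gene Zap70 lay the other way, with 7.21 and 7.08 under oil and 7.30 and 7.60 under TCDD, though a second probe set near the medians had a difference of -0.06. Il7r, the receptor of the survival cytokine IL-7, read 10.56 and 11.27 under oil and 9.67 and 11.13 under TCDD, with TCDD 1 the lowest. A second Il7r probe set, also above the medians, read 8.20 and 7.25 under oil and 6.99 and 6.14 under TCDD, a difference of -1.16 with groups apart.

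NK-cell genes were mixed. Of 16 measured NK markers, 5 had a higher mean (beside 55.6% of all genes) and 11 a lower one. The median was -0.09, and 0.06 without oil 1. Groups were apart and higher for 3 and apart and lower for 2, beside 14.6% and 10.1% of all genes. Klrd1, a lectin-like receptor gene, read 9.64 and 9.15 under oil and 8.96 and 7.16 under TCDD. Tbx21, the T-box factor T-bet, differed by -0.55 with groups that overlapped. The adaptor genes Tyrobp and Fcer1g, which myeloid cells also express, were higher: Tyrobp read 7.76 and 8.19 under oil and 8.25 and 8.65 under TCDD, and Fcer1g 7.58 and 7.53 under oil and 7.79 and 8.63 under TCDD. The summed level of the NK list was 11.96 and 11.34 under oil and 11.75 and 11.06 under TCDD, so the groups overlapped. Gzma, a granzyme gene, read 10.43, 11.21, 11.53 and 7.96, low in TCDD 2 alone.

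Myeloid, erythroid and platelet markers had higher means under TCDD, unevenly across the arrays. All 17 measured granulocyte markers had a higher mean under TCDD, beside 55.6% of all genes, but 4 had groups apart and higher, beside 14.6%. Mpo, the myeloperoxidase gene, read 5.27, 4.85, 8.60 and 4.89 in oil 1, oil 2, TCDD 1 and TCDD 2, and Ngp, a neutrophil granule gene, read 7.99, 8.35, 11.38 and 7.72. The list's median was 1.87 in number 1 and 0.01 in number 2, and without TCDD 1 it was -0.17. Its summed level was 10.89 and 10.26 under oil and 13.05 and 9.92 under TCDD, so TCDD 1 was the highest and TCDD 2 the lowest array.

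Of 19 monocyte and macrophage markers, 16 had a higher mean (beside 55.6% of all genes), with a median of 0.37 that was -0.10 without oil 1 and -0.08 without TCDD 2. Csf1r, the receptor of the macrophage growth factor, read 9.71 and 9.81 under oil and 10.28 and 10.63 under TCDD. Summed levels were 11.98 and 12.91 under oil and 12.52 and 13.01 under TCDD. Of 16 erythroid markers, 15 had a higher mean (beside 55.6% of all genes), with a median of 0.49 that was -0.17 without TCDD 1, and summed levels were 11.20 and 11.02 under oil and 11.92 and 10.92 under TCDD. Klf1, an erythroid transcription factor gene, read 5.51 and 5.18 under oil and 5.96 and 5.80 under TCDD. The globin genes measured had differences of 0.02 and 0.03 and levels of 3.98 to 5.33.

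Platelet and megakaryocyte markers were the most even of these lists. Of 11 measured, 10 had a higher mean (beside 55.6% of all genes) and 7 had groups apart and higher (beside 14.6%), though the median was only 0.18, and it stayed between 0.17 and 0.32 with each emigrant array left out. Gp5 and Vwf, counted among the 7, lay below every median, with differences of 0.26 and 0.25. Gp1bb, a platelet adhesion receptor subunit gene, read 5.46 and 5.43 under oil and 5.66 and 5.95 under TCDD. The summed level was 8.69 and 9.004 under oil and 9.28 and 10.41 under TCDD, and Pf4 had the largest difference of the list. B-cell markers had a median of 0.09, and Cd79a, of the B-cell receptor, lay between 3.94 and 4.23, below every median. Pax5, at 4.07 to 4.41, was also below them. The immunoglobulin gene Ighm was above them, with 8.94 and 8.63 under oil and 9.96 and 8.67 under TCDD. So was Cd22, with 6.14 and 5.85 under oil and 6.02 and 6.70 under TCDD. Summed B-cell levels were 10.39 and 10.35 under oil and 11.07 and 10.65 under TCDD. The part of other cell types in the differences given above was not tested.

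Immediate early genes respond within minutes to stimulation or handling. Of 22 measured, 15 had a higher mean, beside 55.6% of all genes, and 6 had groups apart and higher and 3 lower, beside 14.6% and 10.1%. The median of 0.29 was 0.11 without TCDD 2 and 0.13 without oil 1. Ier3 read 6.06 and 6.59 under oil and 7.05 and 7.31 under TCDD. Btg2, an antiproliferative gene, read 8.58 and 8.46 under oil and 8.85 and 9.23 under TCDD. A second Btg2 probe set, also above the medians, read 6.04 and 5.98 under oil and 5.98 and 6.53 under TCDD, so its groups overlapped. The transcription factor genes Klf4 and Nr4a2 differed by 0.83 and 0.67. Of 13 BCL2 family genes, which set the threshold for apoptosis, 11 had a higher mean (beside 55.6% of all genes), with a median of 0.12 (0.22 without TCDD 1). The survival genes Bcl2l1 and Bcl2l2 differed by 0.34 and 0.35, with groups only 0.02 and 0.08 apart. Other Bcl2l1 probe sets, below the medians, had differences of -0.05, 0.27 and -0.04. Those of Bcl2l2, near or below the medians, had 0.30, 0.11 and -0.03.

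Of 25 interferon response genes, 15 had a higher mean (beside 55.6% of all genes), with a median of 0.07 that was -0.01 without TCDD 1, led by Oasl2 (0.75) and Isg20 (0.46). Among adhesion genes, Itgb7, an integrin chain of gut homing, read 8.04 and 7.65 under oil and 8.33 and 8.54 under TCDD. Cd44, the adhesion receptor of early precursors, read 9.06 and 8.54 under oil and 9.41 and 9.35 under TCDD. Kit, the stem cell factor receptor gene, read 7.50, 6.72, 7.51 and 8.64, its groups only 0.02 apart. Hk2 of glycolysis differed by 0.66, while the lactate transporter gene Slc16a1 differed by -1.18, low in TCDD 2. Ptcra, the pre-T-cell receptor alpha chain gene, read 5.35 and 7.00 under oil and 5.25 and 5.08 under TCDD, with oil 2 alone high.

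The numbered pairs differed widely over all genes. Within number 1, 134 genes differed by over 1 log2 unit between TCDD and oil, and within number 2, 430 did. Between the 2 oil arrays 696 genes differed by as much, and between the 2 TCDD arrays 755. Across the 20393 probe sets, which are not independent replicates, the differences of number 1 and number 2 had a correlation of -0.03. Of the 12394 genes, 6061 (48.9%) had the same direction in both. The median absolute difference over the probe sets was 0.12 in number 1 and 0.22 in number 2.

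Some of the largest differences belonged to 1 array. Myb, a transcription factor gene of precursors, read 10.00, 9.96, 10.59 and 5.31 in oil 1, oil 2, TCDD 1 and TCDD 2. Dntt, which adds bases at antigen receptor joints, read 9.82, 10.68, 11.62 and 6.09, and Cd24a, a surface antigen of immature thymocytes, 9.26, 9.96, 10.61 and 5.72. Sox4, a precursor transcription factor gene, read 8.58, 8.15, 8.29 and 4.60. In these probe sets TCDD 2 alone was low, and without it the differences of Myb, Dntt and Cd24a turned sign. Another Sox4 probe set above the medians read 5.73, 5.44, 5.79 and 5.92, highest in TCDD 2, and 4 more Sox4 probe sets below the medians had differences from -0.04 to 0.16. Rag1, of the V(D)J recombinase, was high in oil 2 alone, at 3.89, 9.81, 5.10 and 3.75, and turned sign without it. Gja1, the gene of connexin 43, was high in TCDD 2 alone, at 5.20, 5.52, 5.69 and 9.63. Lpl, the lipoprotein lipase gene, read 4.83, 10.99, 8.42 and 10.44, low in oil 1.

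**Figure D4:**
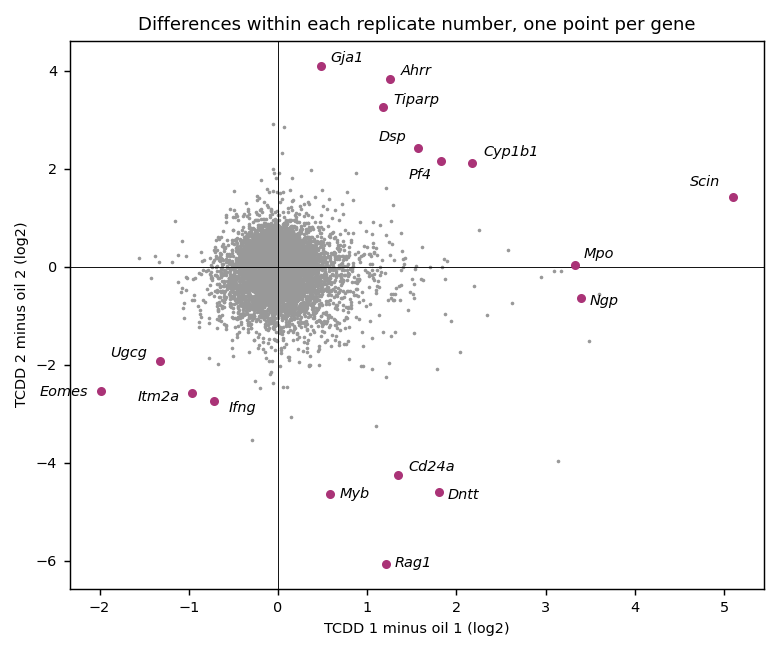
TCDD minus oil (log2) within replicate number 1 (horizontal) and number 2 (vertical) for 12394 genes, each a grey point, with 17 genes of the text in purple. Ahrr, Tiparp, Dsp, Cyp1b1, Pf4 and Scin lie above 1 in both, Eomes and Ugcg below -1 in both, while Myb, Dntt, Cd24a and Rag1 lie at 0.58 to 1.80 in number 1 and -4.24 to -6.06 in number 2.

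Signs of RNA quality were uneven across the arrays too. The difference between 3' and 5' probe sets for actin, a measure of how far RNA is shortened, was 3.92 and 3.34 under oil and 4.68 and 3.79 under TCDD. For Gapdh it was 4.81 and 4.91 under oil and 4.97 and 5.32 under TCDD, so for this gene both TCDD arrays were above both oil arrays. Within each number both measures were higher under TCDD, though for actin the groups overlapped. For the transferrin receptor the same difference was 0.49 and 0.60 under oil and 0.54 and 0.44 under TCDD. For pyruvate carboxylase it was -0.13 and -0.09 under oil and 0.15 and -0.10 under TCDD. These last measures overlapped between groups and were lower under TCDD within number 2. The part of RNA quality in the results was not tested. On the second principal component of all probe sets, with 22.41% of the variance, TCDD 2 stood at -45.99 and oil 2 at -18.38, and oil 1 and TCDD 1 at 25.80 and 24.88.

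Thymocytes of the same treatments share no arrays with the emigrants, and the description text of the thymocyte arrays titled TCDD names oil alone. limma's interaction contrast, which tests whether the TCDD difference in emigrants departs from that in thymocytes, called 0 of 20393 probe sets (0%) at an adjusted p under 0.05, and 258 (1.27%) had an unadjusted p under 0.05. Scin went from 7.88 and 7.37 to 11.09 and 10.73 in thymocytes, a difference of 3.29 beside 3.26 in emigrants, though both oil levels were higher there. Cyp1b1 differed by 4.20 in thymocytes and 2.15 in emigrants, and the difference between them was -2.05 (limma interaction adjusted p = 0.99982). For Dsp the values were 2.31 in thymocytes and 2.00 in emigrants.

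Some genes had like differences in both sources. Lgals3 differed by 1.51 in thymocytes, Ifitm1 by 1.32, Tiparp by 1.50, Socs3 by 0.83, Kit by 0.74 and Itgb7 by 0.76. Eomes was already low in thymocytes, with 5.11 and 5.62 under oil and 4.84 and 5.33 under TCDD, a difference of -0.28. Gstm1 differed by -0.05 in thymocytes, and Ahrr by 0.68. For Ptbp2 the thymocyte arrays read 6.12 and 5.78 under oil and 6.61 and 6.69 under TCDD, so the difference was 0.70 there, against lower TCDD arrays in emigrants. The median of the DNA replication list was -0.50 in thymocytes, and that of the granulocyte list -0.33.

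**Figure D5:**
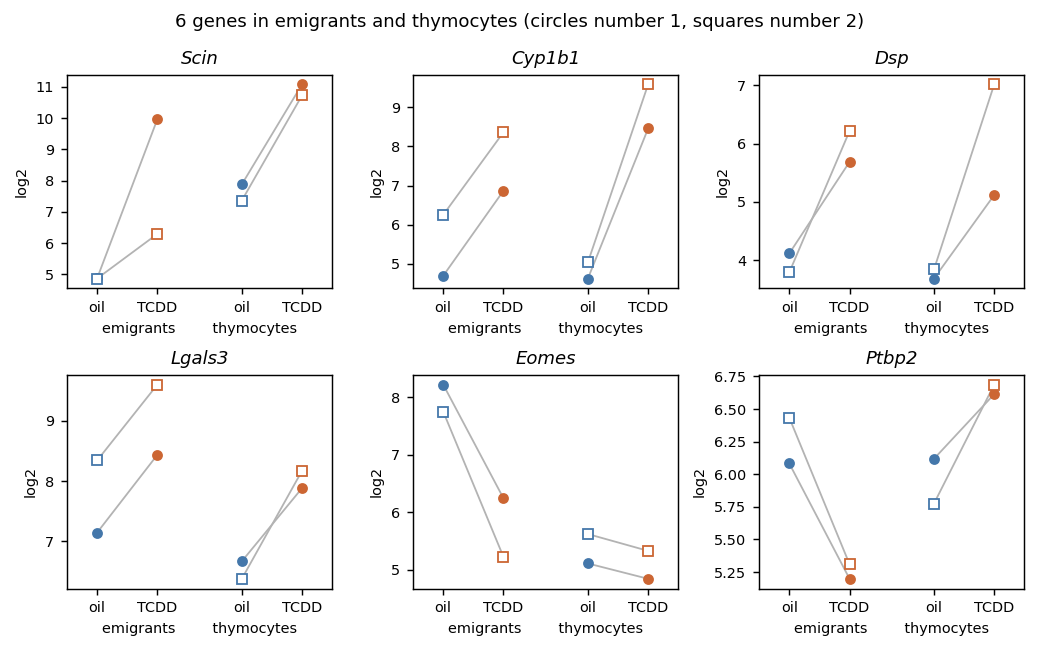
Expression (RMA, log2) of 6 genes in emigrants and thymocytes under oil (blue) and TCDD (orange); circles are replicate number 1, squares number 2, and grey lines join arrays of one number. Lines of Scin, Cyp1b1, Dsp and Lgals3 slope up from oil to TCDD in each of the 4 joined pairs, Eomes starts at 8.22 and 7.75 in emigrants against 5.11 and 5.62 in thymocytes, and Ptbp2 slopes down in emigrants and up in thymocytes.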

How the data were processed

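RNA of sorted CD4-CD8- cells was amplified and hybridised to Affymetrix arrays, per the labels' protocols. The values deposited by the authors are log2, for 22690 probe sets on 8 arrays, and RMA is named in the submitters' processing notes without a version. RMA makes array distributions alike, so a shift common to most genes cannot be seen, and dim differences are compressed. Names came from the annotation of the platform, updated by gene identifier from a RefSeq table: 20393 had 1 symbol and were used, and 691 with several and 1606 with none were left out. Identifiers gave 20364 of the symbols. The brightest probe set over the 8 arrays stood for each gene.

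Differences were fitted with limma 3.58.1 in R 4.3.3 (lmFit, eBayes, means of 4 groups, two-sided, Benjamini-Hochberg, threshold 0.05) on all 8 arrays, which left 4 residual degrees of freedom and a median residual SD of 0.22. The number of arrays limits the precision. The code was tested on simulated data.

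Named genes were the 15 in each direction with the widest gap between groups that do not overlap and a bright higher side, up to 8 more in each direction by the smaller within-number difference, the AhR genes, and up to 4 of each list by p. Others (Gja1, Lpl, Dntt, Uhrf1, Cdk1 and members named for their groups) were chosen after their values were seen. A summed level is log2 of the summed linear values of a list's measured members. The 36 lists and all members were chosen with earlier results of these data known. Alternatives were 14, among them grouping by the Treatment field. Within each source, arrays of one number deviated together (r = 0.51 in emigrants, 0.73 in thymocytes), but 2 pairs do not establish pairing.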

Additional observations from a re-analysis of the deposited data

Results flagged for a closer look

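In these genes both replicate numbers differed one way between TCDD and oil in emigrants and the opposite way in thymocytes. Over all 12394 genes 1720 did so (13.9%), and 1570 (12.7%) had one direction in all 4 pairs. Each value is the TCDD minus oil difference in emigrants minus that in thymocytes, on the log2 scale. limma's interaction contrast gave an adjusted p of 0.99982 for each of the genes given here, and the smallest unadjusted p was 0.00053, for Ptbp2.

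Higher in thymocytes and lower in emigrants under TCDD were the RNA and chromatin genes Ptbp2 (-1.71), Srsf6 (-0.77), Sf3b1 (-0.74), Zfp207 (-2.08), Kmt2a (-1.35), Mllt3 (-1.18) and Ppil4 (-1.06). The chaperone genes Vbp1 (-1.28) and Hsp90aa1 (-0.69) did the same. So did Ugcg of glycosphingolipid synthesis (-1.98), Uba3 (-1.31) and Rnf138 (-1.28) of protein modification, and Ppp1cb (-1.10), Rasa1 (-1.56) and Chn2 (-1.14) of signalling. The lymphocyte receptor genes of this kind were Klrd1 (-2.05), Ptcra (-1.19) and Il7r (-0.98).

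Lower in thymocytes and higher in emigrants were the myeloid genes Elane (0.93), Csf1r (0.95), Prtn3 (1.38), Cd177 (0.96), Mpo (2.45) and Fcer1g (0.93). Outside that group were Stom (0.82), Poglut2 (0.93), Hk2 (0.83), Bcl2l1 (0.45) and Bcl2l2 (0.48). The sign of the emigrant difference turned without TCDD 1 for Mpo and for the Il7r probe set used, while a second Il7r probe set had a difference of -1.16 in emigrants with groups apart. For Hsp90aa1 it turned without TCDD 2, and its other probe sets had differences of -0.29 and -0.75 in emigrants, with oil 2 low as well. Second probe sets of Kmt2a, Zfp207 and Ptbp2 had differences of 0.04, 0.09 and 0.01 in emigrants, unlike those used. Other Bcl2l1 probe sets had differences of -0.05, 0.27 and -0.04 in emigrants, and those of Bcl2l2 0.30, 0.11 and -0.03. Those of Rnf138 had -0.18 and -0.14.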

How the results depend on the processing

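The count of 0 probe sets past the threshold held in 13 of 14 alternatives. Where the Treatment field placed emigrants oil 1 with TCDD, 1 probe set passed: Fstl1, at 4.02, 7.13, 4.17 and 4.08 in oil 1, oil 2, TCDD 1 and TCDD 2 (limma adjusted p = 0.01153), where oil 2 alone then forms the oil group. The smallest adjusted p over all alternatives ranged from 0.01153 to 0.9999. Probe sets at an unadjusted p under 0.05, 245 as reported, numbered 905 with that label, 107 over brighter probe sets, 146 with the brightest and 152 with the mean probe set of each gene, where fewer were tested. With a replicate block they numbered 371 (number for all arrays) and 1158 (number within each source), both with 0 past the threshold. With 1 emigrant array left out they ranged from 249 to 1229, and the lone array is then assumed to vary like the other groups. Probe sets whose groups did not overlap, 5006 as reported, numbered 10251 with the Treatment label, 2363 over brighter ones, 3065 and 3040 by gene, and 11832 to 14534 with 1 array left out, since fewer arrays overlap less. Of 117 gene differences followed, 95 kept their sign with each emigrant array left out, 22 did not, 12 turned with the Treatment label, among them Ifitm1, Cd93, C1qb, Cd2, Cd8a and Oasl2, and 0 turned under other settings. RMA values carry no background call, so changes from dim levels are limited by the assay.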
